A study of Mus musculus with 24 samples.

Results

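The 10 genes described here encode the muscle transcription factors MEF2A, MEF2C and MEF2D, the serum response factor SRF with its coactivators myocardin and the 2 myocardin-related factors, and the class IIa histone deacetylases HDAC4, HDAC5 and HDAC9. They were taken by name from the array's probe annotation, and each was represented by its brightest probe set over the 24 arrays, out of 18819 genes measured in this way. All 10 were found, 8 with 1 probe set, Mef2d with 2 and Mrtfb with 3. Mkl1 and Mkl2, the names used on the array, are Mrtfa and Mrtfb in the mouse annotation and are called so below. The tissue was ventricle of mouse heart on a C57/Bl6 background (C57BL/6J in the study's methods), in 4 groups of 6 arrays, namely young (30 days) KO, young WT, newborn (1 to 2 days) KO and newborn WT hearts. These ages are those of the sample annotation, and the study's methods give slightly different ones. KO hearts lacked caspase-7 in the whole animal and carried floxed caspase-3 alleles deleted by an Nkx2.5::Cre transgene, which is active in cardiac cells, so cells outside that lineage still have caspase-3. WT hearts were wild type for both caspases, the genes of which are not analysed here. Both sexes were used, but the sex of each array was not given.

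MEF2 and SRF are related DNA-binding proteins of the MADS-box family. MEF2 factors bind A/T-rich sites in genes of the sarcomere and of energy supply, and class IIa HDACs bind to MEF2 and hold those genes silent until kinases such as CaMK and protein kinase D phosphorylate the deacetylase and it leaves the nucleus with 14-3-3 proteins. SRF binds CArG boxes, with myocardin in cardiac and smooth muscle, with myocardin-related factors when monomeric actin is depleted, or with ternary complex factors after growth stimuli. Several of these proteins, MEF2 factors, SRF and HDAC4 among them, are known caspase substrates, which is a property of the proteins that RNA arrays do not read.

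The promoter windows below are shown because they carry the sites through which this group of regulators is known to bind, both in its own genes and in 2 of the target genes described further on. Windows from 250 bases before to 50 bases after a transcription start were taken from RefSeq (build GRCm38.p6) for 9 of the 10 genes, 15 windows in all, and were searched on both strands for the CArG box and the MEF2 site, 10-base motifs of which a match to one cannot be a match to the other. Across all 32851 windows, 1.63% held a CArG box and 3.19% a MEF2 site. Among the 15 windows a CArG box was found in 1, that of Srf, and a MEF2 site in 3, those of Mef2a, Hdac5 and Mrtfb. Each sequence is written 5′ to 3′ on the gene's own strand with the motif in capitals. Srf (chr17:46556163-46556262, minus strand, the 100 bases before the start) held 2 CArG boxes, beginning 82 and 62 bases before the start. Acta1 (chr8:123894816-123894875, minus strand) held 1 CArG box 73 bases before its start. The MEF2 site of Mef2a (chr7:67372851-67372880, minus strand) ran across the start, the site of Hdac5 (chr11:102230173-102230212, minus strand) began 20 bases before it, that of Mrtfb (chr16:13358241-13358280, plus strand) 165 bases before 1 of its starts, and that of Xirp2 (chr2:67445912-67445951, plus strand) 74 bases before its start. These are matches of letters and not measured binding sites.
Srf: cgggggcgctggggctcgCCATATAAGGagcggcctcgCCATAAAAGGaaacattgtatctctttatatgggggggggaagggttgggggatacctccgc
Acta1: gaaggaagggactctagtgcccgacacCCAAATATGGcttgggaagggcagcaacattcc
Mef2a: gcctggccgaggcctgactcCTAAAAATAG
Hdac5: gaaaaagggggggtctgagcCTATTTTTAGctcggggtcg
Mrtfb: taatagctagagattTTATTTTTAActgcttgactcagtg
Xirp2: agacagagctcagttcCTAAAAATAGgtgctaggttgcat

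Values are log2 signals as deposited, where a difference of 1 is a doubling, and levels of different genes are not set against each other because each probe set has its own brightness. Array medians lay between 4.24 and 4.50, and each array correlated with the others of its group at a mean r of 0.985 to 0.993. The mean of 10 ventricular cardiomyocyte markers lay between 11.88 and 12.34 in all 24 arrays, and that of 10 skeletal muscle markers between 4.06 and 5.29. Atrial markers were present as well, and their 12-gene mean ran from 6.13 to 9.20 in young KO, 5.63 to 8.67 in young WT, 7.92 to 9.0 in newborn KO and 7.27 to 8.93 in newborn WT arrays. The newborn arrays numbered 4, 1 KO and 1 WT, had stood out on genotype-related signals in earlier work on these data, and leaving out both raised the number of genes called between newborn KO and WT hearts to 482 (2.56%), against 0 with them. As these arrays were picked on genotype-related signals of the same data, more calls without them are no independent evidence of a genotype difference. Values without this pair of arrays stand beside the newborn results below.

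The largest movements of the group were with age. In KO hearts 2 of the 10 genes, Hdac4 and Srf, rose by day 30 and 2, Myocd and Mrtfa, fell. In WT hearts the same 2 rose and Myocd, Mrtfa and Mef2a fell. The changes were small, at most 1.42-fold, and Mef2c, Mef2d, Mrtfb, Hdac5 and Hdac9 did not pass the test in either genotype. A call means an adjusted p under 0.05 from limma, with Benjamini-Hochberg adjustment over all 18819 genes. By this rule 59% of all genes were called between young and newborn KO hearts (34% higher, 25% lower) and 47% between young and newborn WT hearts (19.2% higher, 27.9% lower), so 4 and 5 of 10 are near the share of genes at large. These shares depended on scaling. With quantile normalization 47.2% of all genes were called in KO and 46.8% in WT hearts, and 50.2% and 48.5% of these calls were higher. After median centring of the arrays, 55.9% of the KO calls and 52.5% of the WT calls were higher in young hearts. As deposited, 57.6% of the KO calls and 40.8% of the WT calls were higher. The median log2 fold change of the 10 genes was -0.038 in KO and -0.049 in WT hearts, against 0.098 and 0.0024 over all genes. Without genes under the 30th percentile of signal, the medians over genes were -0.050 in KO and -0.097 in WT hearts. Arrays of whole tissue cannot tell fewer cells of a type from less RNA per cell.

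**Figure D1:**
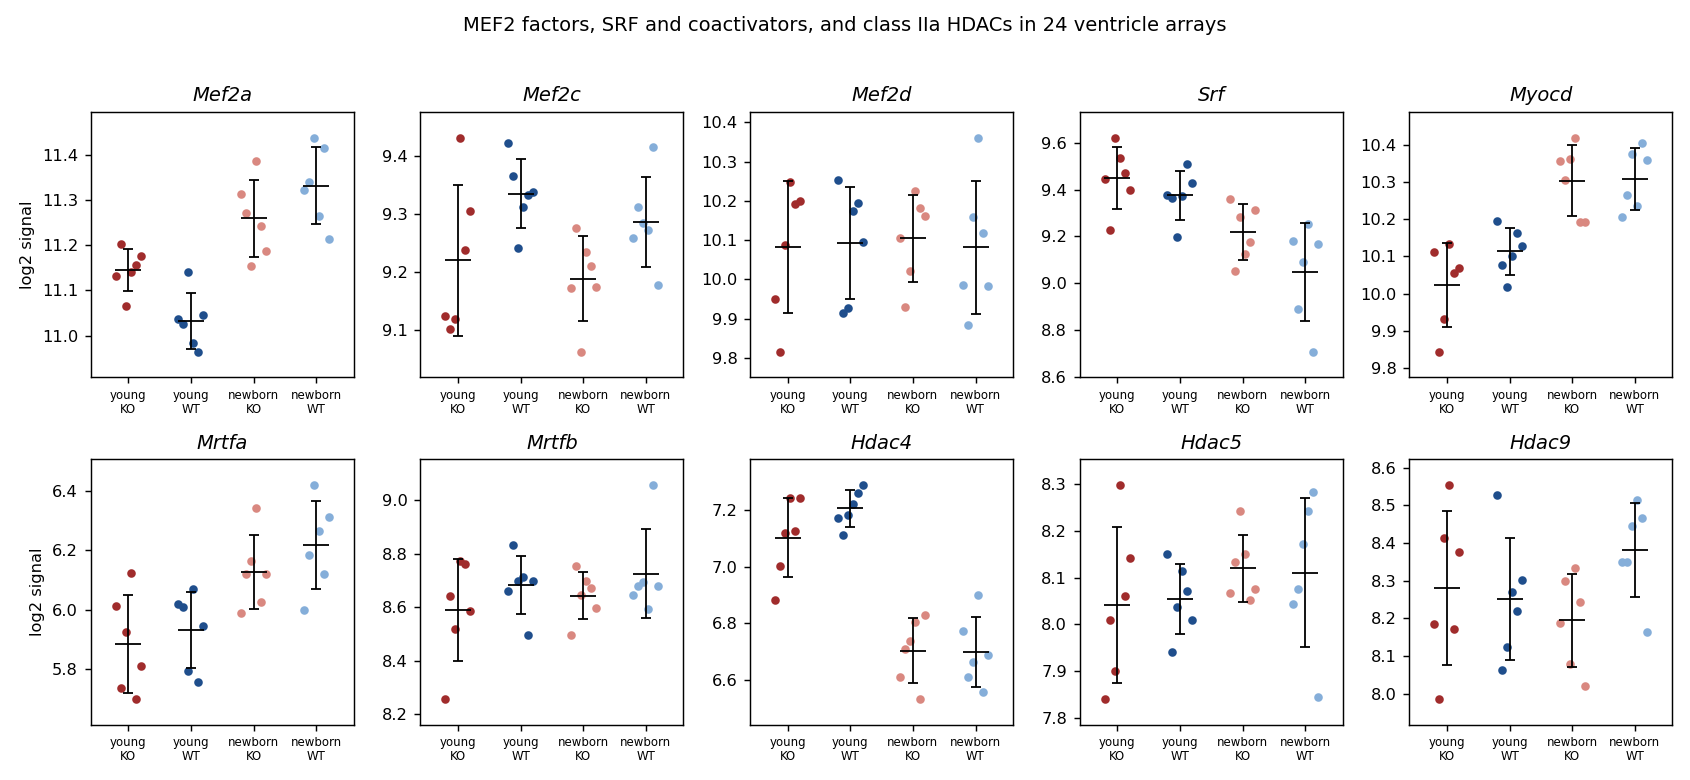
Log2 signal of each of the 10 genes (vertical axis, own scale per panel) in every array of young KO, young WT, newborn KO and newborn WT ventricle. Points are arrays, and bars are the mean and SD over 6 arrays. Hdac4 separates the ages in both genotypes, while the 4 groups of Mef2d, Hdac5 and Hdac9 share most of their range.

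Among the MEF2 factors, Mef2a was the one that moved. In KO hearts the Mef2a signal had a lowest, median and highest value of 11.07, 11.15 and 11.20 in young arrays, against 11.15, 11.26 and 11.39 in newborn arrays. In WT hearts it was 10.96, 11.03 and 11.14 in young arrays, against 11.21, 11.33 and 11.44 in newborn arrays. The 6 young WT arrays all lay below the 6 newborn WT arrays, whereas the KO ages overlapped. The log2 fold change of Mef2a in KO hearts was -0.11 (SE 0.05, limma adjusted p = 0.0674), which did not pass, and in WT hearts Mef2a fell by 0.30 on the log2 scale (SE 0.05, 1.23-fold, adjusted p = 3.67e-05). The KO value did pass with a variance trend and robust moderation (adjusted p = 0.0378) and without the newborn KO array numbered 3 (0.0420).

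Mef2c, the factor required for formation of the heart tube and right ventricle in mice, was level across ages. Its young KO arrays had a lowest, median and highest signal of 9.10, 9.18 and 9.43, against 9.06, 9.19 and 9.28 in newborn KO arrays. Its young WT arrays had 9.24, 9.33 and 9.42, against 9.18, 9.28 and 9.41 in newborn WT arrays. The ages overlapped in both genotypes, and the log2 fold change was 0.03 in KO (95% interval -0.09 to 0.15) and 0.05 in WT hearts (-0.07 to 0.17). Mef2d, whose product mediates stress-induced growth in the adult mouse heart, had log2 fold changes of -0.02 in KO (-0.20 to 0.16) and 0.01 in WT hearts (-0.17 to 0.19). A dimmer second Mef2d probe set, matched to a single cDNA, gave -0.30 in KO (SE 0.09) and -0.28 in WT hearts (SE 0.09), so the 2 probe sets of this gene disagree on a fall with age.

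Srf rose with age in both genotypes. In KO hearts its lowest, median and highest signals were 9.23, 9.46 and 9.62 in young arrays, against 9.05, 9.23 and 9.36 in newborn arrays. In WT hearts they were 9.20, 9.37 and 9.51 in young arrays, against 8.71, 9.13 and 9.25 in newborn arrays. The highest newborn arrays overlapped the lowest young ones in both genotypes. The log2 fold change was 0.23 in KO hearts (SE 0.09, limma adjusted p = 0.0244) and 0.33 in WT hearts (SE 0.09, adjusted p = 0.00252). The KO call was lost with quantile normalization (adjusted p = 0.0722) and without newborn KO array 2 (0.0634), newborn KO array 4 (0.0505) or young KO array 3 (0.0629).

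Of the 3 coactivators of SRF, Myocd and Mrtfa moved the other way. Myocd, which encodes the cardiac and smooth muscle coactivator myocardin, had signals of 9.84, 10.06 and 10.13 (lowest, median and highest) in young KO arrays, against 10.19, 10.33 and 10.42 in newborn KO arrays. In WT hearts the values were 10.02, 10.11 and 10.20 in young arrays, against 10.21, 10.31 and 10.41 in newborn arrays. All young arrays lay below all newborn arrays in each genotype. Myocd fell by 0.28 in KO hearts (SE 0.06, 1.21-fold, limma adjusted p = 0.000399) and by 0.19 in WT hearts (SE 0.06, 1.14-fold, adjusted p = 0.00957), and the WT call was lost after median centring (-0.13, adjusted p = 0.111).

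Mrtfa encodes a coactivator held in the cytoplasm by monomeric actin. Its lowest, median and highest signals were 5.70, 5.87 and 6.12 in young KO arrays, against 5.99, 6.12 and 6.34 in newborn KO arrays. Young WT arrays had 5.75, 5.98 and 6.07, against 6.00, 6.23 and 6.42 in newborn WT arrays. The ages overlapped in both genotypes. Mrtfa fell by 0.24 in KO hearts (SE 0.08, limma adjusted p = 0.0164) and by 0.29 in WT hearts (SE 0.08, adjusted p = 0.00638). Both calls were lost with quantile normalization (-0.10 and -0.09, adjusted p = 0.325 and 0.382), and the KO call also without the 2 newborn arrays numbered 4 (-0.20, adjusted p = 0.0530).

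Its relative Mrtfb, required for cardiac neural crest and vessel development in mice, did not pass with age. Its median was 8.61 in young KO and 8.66 in newborn KO arrays, and 8.70 in young WT and 8.68 in newborn WT arrays, with log2 fold changes of -0.05 in KO (95% interval -0.23 to 0.12) and -0.04 in WT hearts (-0.22 to 0.13). The dimmest of its 3 probe sets gave -0.18 in KO (SE 0.09) and -0.29 in WT hearts (SE 0.09).

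Hdac4 changed more with age than any other of the 10 genes in both genotypes. HDAC4 binds MEF2 and represses its targets, and it is also a brake on chondrocyte growth. In KO hearts its lowest, median and highest signals were 6.88, 7.12 and 7.25 in young arrays, against 6.53, 6.72 and 6.83 in newborn arrays. In WT hearts they were 7.11, 7.20 and 7.29 in young arrays, against 6.56, 6.68 and 6.90 in newborn arrays. The ages did not overlap in either genotype. The log2 fold change was 0.40 in KO hearts (SE 0.07, 1.32-fold, limma adjusted p = 4.20e-05) and 0.51 in WT hearts (SE 0.07, 1.42-fold, adjusted p = 1.37e-06). The change of Hdac4 was still modest among all genes, as 30.8% of genes in KO and 23.3% in WT hearts changed more in size.

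HDAC5 and HDAC9 restrain growth of the stressed heart in mice, and their genes did not pass with age. The Hdac5 median was 8.04 in young KO and 8.10 in newborn KO arrays, and 8.05 in young WT and 8.12 in newborn WT arrays, with log2 fold changes of -0.08 in KO (95% interval -0.24 to 0.08) and -0.06 in WT hearts (-0.21 to 0.10). The Hdac9 median was 8.28 in young KO and 8.22 in newborn KO arrays, and 8.24 in young WT and 8.40 in newborn WT arrays, with log2 fold changes of 0.09 in KO (-0.10 to 0.27) and -0.13 in WT hearts (-0.32 to 0.06). Hdac7, the remaining class IIa enzyme and best known from endothelial cells and thymocytes, was in the list of other deacetylases and was named, after its values were seen, to complete the class. It fell by 0.31 in KO (SE 0.07, limma adjusted p = 0.00108) and by 0.23 in WT hearts (SE 0.07, adjusted p = 0.0119).

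**Figure D2:**
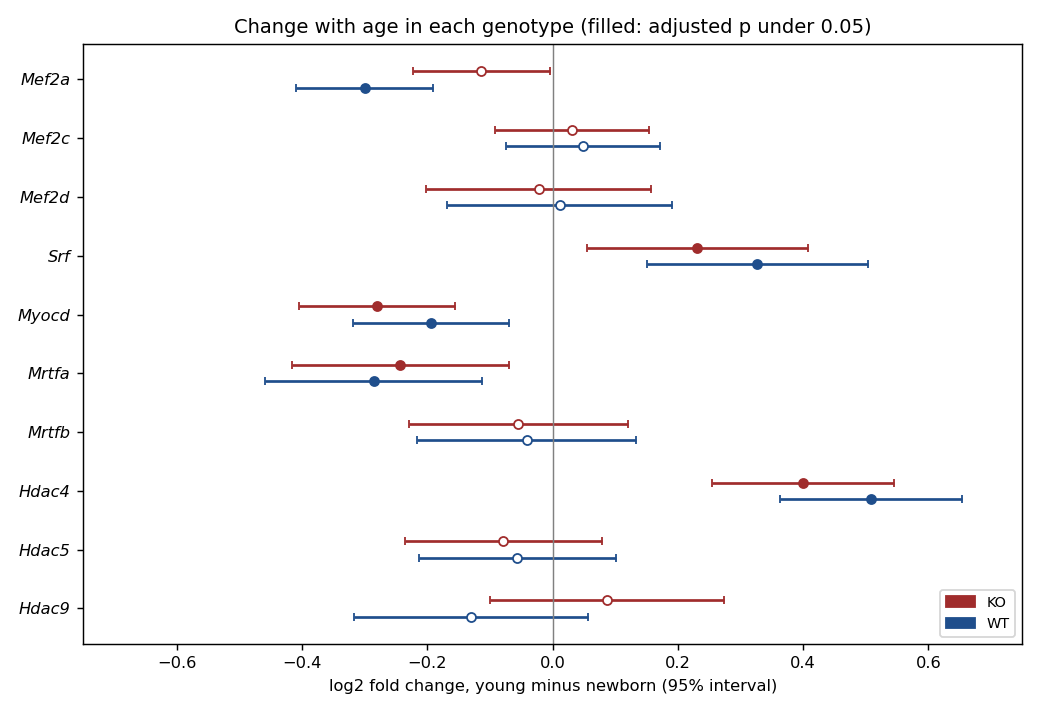
Log2 fold change with age (horizontal axis, young minus newborn) of the 10 genes in KO and WT hearts, with 95% intervals from limma over 24 arrays. Filled points passed an adjusted p under 0.05. Hdac4 and Srf lie to the right of 0 and Myocd and Mrtfa to the left in both genotypes, and Mef2a is filled for WT alone.

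Counting genes whose 6 young arrays did not overlap the 6 newborn arrays gave 2 of 10 in KO hearts (Hdac4 and Myocd) and 3 of 10 in WT hearts (Hdac4, Myocd and Mef2a). Over all genes this held for 31% in KO and 29.7% in WT hearts. None of the changes reached 1.5-fold, so with that minimum 0 of the 10 genes were called with age. Markers of several cell types moved with age as well. Of 10 ventricular cardiomyocyte markers, 6 were higher and 1 lower in young KO hearts and 7 higher and 1 lower in young WT hearts, and their mean ran from 12.16 to 12.26 in young KO against 11.88 to 12.04 in newborn KO, and from 12.22 to 12.34 in young WT against 11.89 to 12.04 in newborn WT arrays. Of 10 macrophage and leukocyte markers, 9 were higher and 0 lower in both genotypes, with a mean of 7.16 to 7.66 in young KO against 6.15 to 6.89 in newborn KO, and 7.05 to 7.55 in young WT against 6.24 to 6.40 in newborn WT arrays. Of 9 epicardial markers, 6 were lower in young KO and 8 in young WT hearts, and 0 were higher in either. Of 12 atrial markers, 4 were lower and 1 higher in young KO and 8 lower and 1 higher in young WT hearts. Of 10 fibroblast markers, 4 were lower and 3 higher in young KO and 6 lower and 1 higher in young WT hearts, and of 10 endothelial markers, 4 were lower and 1 higher in young KO and 6 lower and 2 higher in young WT hearts. The part of these cells in the age changes of the 10 genes was not tested.

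Between genotypes the 10 genes differed little, and none passed the test at either age. In newborn hearts 0 of 10 were called between KO and WT, and 0 had an unadjusted p under 0.05. Over all genes 0% were called in limma and 9.07% had an unadjusted p under 0.05. The log2 fold changes ran from -0.19 to 0.17, and every 95% interval lay between -0.37 and 0.35. The lowest value was that of Hdac9, whose lowest, median and highest signals were 8.02, 8.22 and 8.33 in newborn KO arrays and 8.16, 8.40 and 8.51 in newborn WT arrays. The log2 fold change of Hdac9 was -0.19 (SE 0.09, limma adjusted p = 0.550). The highest was that of Srf, with 9.05, 9.23 and 9.36 in newborn KO and 8.71, 9.13 and 9.25 in newborn WT arrays and a log2 fold change of 0.17 (SE 0.09, adjusted p = 0.567). KO and WT arrays overlapped for all 10 genes, and non-overlap was found for 0.489% of all genes. Without the 2 newborn arrays numbered 4, again 0 of 10 were called, with Srf at 0.23 (SE 0.09, adjusted p = 0.243) and Hdac9 at -0.19 (SE 0.10, adjusted p = 0.413).

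In young hearts 0 of the 10 genes were called between KO and WT, against 1.02% of all genes in limma (0.67% higher, 0.351% lower). The direction of those calls depended on scaling: 65.6% of them were higher in KO hearts, against 29.2% after median centring and 47.8% after quantile normalization. Mef2a had the lowest p of the 10. Its 6 young KO arrays lay at 11.07, 11.15 and 11.20 (lowest, median and highest) and the 6 young WT arrays at 10.96, 11.03 and 11.14, overlapping in part. The log2 fold change of Mef2a was 0.11 (SE 0.05, limma adjusted p = 0.310, unadjusted p = 0.0419). Mef2c had the lowest value, -0.12 (SE 0.06, adjusted p = 0.371), with 9.10, 9.18 and 9.43 in young KO arrays and 9.24, 9.33 and 9.42 in young WT arrays. All 10 intervals lay between -0.27 and 0.25, KO and WT arrays overlapped for each gene, and 0.824% of all genes did not overlap. The median log2 fold change of the 10 was -0.030, against 0.033 over all genes.

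The difference between the young and the newborn KO effect, which is also the difference between the KO and WT age changes, was tested directly. It was called for 0 of the 10 genes and for 0.0106% of all genes. Mef2a had an unadjusted p of 0.0200, with a difference of 0.19 (95% interval 0.03 to 0.34, limma adjusted p = 0.322), so the call of Mef2a with age in WT and not in KO hearts is not shown to differ between the genotypes. Hdac9 had the largest difference, 0.22 (-0.05 to 0.48, adjusted p = 0.482).

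**Figure D3:**
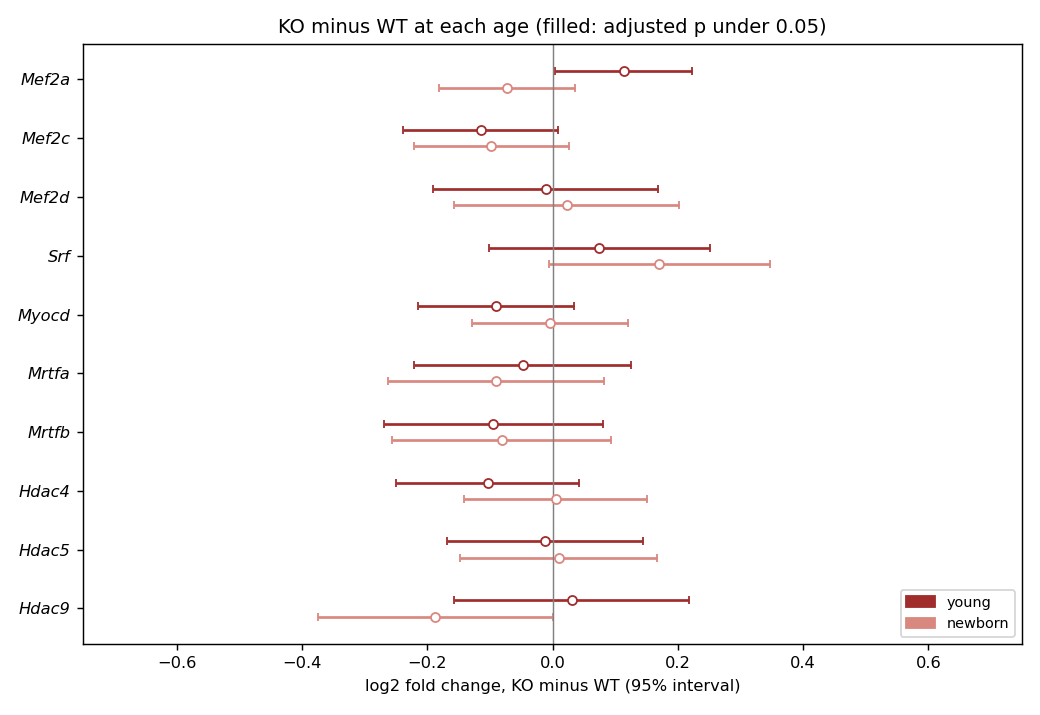
Log2 fold change between genotypes (horizontal axis, KO minus WT) of the 10 genes in young and newborn hearts, with 95% intervals from limma over 24 arrays. No point is filled, as none passed an adjusted p under 0.05, and all intervals lie between -0.37 and 0.35.

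With group means removed, the arrays still differed, and the members moved in part together. Over the 24 arrays of 4 groups, the deviations of Hdac9 had Pearson r of 0.68 with Mef2c and 0.66 with Mef2d, and Mef2c had 0.63 with Hdac5. Mef2a and Srf ran against each other at -0.61, as did Srf and Mrtfb at -0.55. These pairs share arrays, RNA and normalization and are given as a description out of 45 pairs. Among all other genes, the most alike were Erc1 (0.72) and Hmgb1 (0.71) for Mef2a, Cux1 (0.78) and Cdh20 (0.76) for Mef2c, and Yipf3 (0.88) and Mrps21 (0.87) for Mef2d. For Srf they were Fam133b (0.81) and Arf1 (0.80), for Myocd Emsy (0.82) and Klhl31 (0.81), for Mrtfa Msh4 (0.80) and Tmcc1 (0.77), and for Mrtfb Slitrk6 (0.79) and Ctdsp2 (0.76). For the deacetylases they were Fmo4 (0.79) and Prima1 (0.77) with Hdac4, Atxn7 (0.82) and Mtmr14 (0.82) with Hdac5, and Tsc1 (0.87) and Kif13a (0.86) with Hdac9.

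Around the 10 genes, 7 lists of partners, enzymes and targets were counted, with 147 of 158 listed genes measured. Their counts stand against 34% of all genes higher and 25% lower with age in KO hearts. In WT hearts the shares of all genes were 19.2% higher and 27.9% lower. These shares depended on scaling and on a filter by signal, as given above, and no list was tested as a set. The difference between the KO and WT age changes was called for 0 genes of the 7 lists. A list gene called with age in a single genotype is therefore not shown to differ between the genotypes. Of 15 partners and upstream regulators of MEF2, 2 were higher and 9 lower in young than in newborn KO hearts, and 3 higher and 6 lower in WT hearts, with median log2 fold changes of -0.22 and -0.11. Nfatc4, a calcineurin-activated factor that works with MEF2, fell by 0.91 in KO and 0.86 in WT hearts, and Mapk7, the ERK5 kinase that activates MEF2, by 0.80 and 0.77. Mapk14, the p38 kinase that phosphorylates MEF2, rose by 0.36 in KO and 0.44 in WT hearts, and Tead1, a factor of muscle promoters, by 0.32 and 0.39. Crebbp, an acetyltransferase coactivator, fell by 0.33 in KO and 0.25 in WT hearts. Nfatc2, another calcineurin-activated factor, was at 0.02 in KO hearts and rose by 0.29 in WT hearts.

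The SRF partners had 9 of 17 higher and 5 lower with age in KO hearts, and 8 higher and 5 lower in WT hearts. Fhl2, a LIM protein that competes with myocardin-related factors, rose by 0.76 in KO and 0.63 in WT hearts, Ablim1, an actin-binding LIM protein, by 0.51 and 0.68, and Prrx1, a homeobox factor that binds with SRF, by 0.65 and 0.65. Of the actin-binding proteins in the list, Cfl1 (cofilin) fell by 0.51 in KO and 0.72 in WT hearts and Pfn1 (profilin) fell by 0.43 in KO and 0.40 in WT hearts. The muscle cofilin Cfl2 rose by 0.12 in KO hearts (limma adjusted p = 0.0472) and was at 0.02 in WT hearts, and the actin-sequestering Tmsb4x was at -0.05 in KO and -0.06 in WT hearts. Cfl2 and Tmsb4x were named after their values were seen. Scai, a suppressor of myocardin-related factors, fell by 0.38 in KO and 0.42 in WT hearts, alongside the fall of Myocd and Mrtfa given above.

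Of 27 kinases, phosphatases, anchors and 14-3-3 proteins that move class IIa HDACs, 8 were higher and 8 lower with age in KO hearts and 11 higher and 11 lower in WT hearts. Akap6, the anchor of these enzymes at the nuclear envelope, rose by 0.74 in KO and 0.99 in WT hearts, and Rcan1, a calcineurin inhibitor and target, by 0.58 and 0.64. Prkd1, a protein kinase D that phosphorylates class IIa HDACs, fell by 0.77 in KO and 0.72 in WT hearts. Ywhaq, a 14-3-3 protein, fell by 0.57 in KO and 0.71 in WT hearts, and Prkcd, a kinase upstream of protein kinase D, by 0.57 and 0.58. Camk1d, a calmodulin-dependent kinase, was at -0.51 in KO hearts and fell by 1.10 in WT hearts. The other zinc-dependent deacetylases and corepressors had a single direction, 9 of 15 lower and 0 higher in each genotype, with medians of -0.31 in KO and -0.30 in WT hearts. Hdac6, a cytoplasmic tubulin deacetylase, fell by 1.06 in KO and 1.01 in WT hearts, Hdac1 of the nuclear repressor complexes by 0.79 and 1.13, and the corepressor Ctbp2 by 0.62 and 0.79. Hdac4 thus rose while 9 of these 15 deacetylases and corepressors fell, its class IIa relative Hdac7 among them. Its other class IIa relatives, Hdac5 and Hdac9, did not pass with age.

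MEF2 target genes were mostly higher in young hearts, 17 of 27 higher and 2 lower in KO and 16 higher and 2 lower in WT hearts (medians 0.26 and 0.22). Several of the ventricular cardiomyocyte markers counted above are also in this list. Xirp2, an actin-binding protein of the intercalated disc, had signals of 9.69, 10.08 and 10.18 (lowest, median and highest) in young KO arrays, against 5.70, 6.15 and 6.26 in newborn KO arrays. In WT hearts Xirp2 had 10.29, 10.41 and 10.48 in young and 5.38, 5.61 and 6.04 in newborn arrays. The ages were far apart, and Xirp2 rose by 4.00 in KO (limma adjusted p = 1.84e-18) and by 4.70 in WT hearts (adjusted p = 8.87e-20). Slc2a4, the insulin-responsive glucose transporter, rose by 1.94 in KO and 1.57 in WT hearts, Tcap (telethonin of the Z-disc) by 1.99 and 1.5, and Hrc, a calcium-binding protein of the sarcoplasmic reticulum, by 1.84 and 1.81. Meg3, a long noncoding RNA of an imprinted locus, fell by 1.97 in KO and 1.62 in WT hearts. Srpk3, a muscle kinase, fell by 0.26 in KO hearts (adjusted p = 0.0431), a call lost without any of 8 single KO arrays, and was at -0.13 in WT hearts. Jun, an AP-1 factor, was at -0.27 in KO hearts and fell by 0.62 in WT hearts. A MEF2 site was found in promoter windows of 5 of the 22 targets that had one, 22.7%, against 3.7% of all genes with a window. It was found for 2 of 27 SRF targets of muscle and cytoskeleton (7.41%), 1 of 14 SRF partners (7.14%) and no gene of the other lists.

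SRF targets of muscle and cytoskeleton were split. Of 32, 10 were higher and 8 lower with age in KO hearts and 6 higher and 15 lower in WT hearts, with medians of 0.0099 and -0.23. Acta1, the skeletal actin of the sarcomere, had 10.25, 10.92 and 11.31 in young KO against 7.92, 8.32 and 9.92 in newborn KO arrays, and 11.00, 11.20 and 11.80 in young WT against 8.36, 8.75 and 8.89 in newborn WT arrays. No young array of Acta1 overlapped a newborn one, and it rose by 2.32 in KO (limma adjusted p = 1.82e-08) and by 2.60 in WT hearts (adjusted p = 2.08e-09). Nppb, the B-type natriuretic peptide, rose by 0.90 in KO and 1.68 in WT hearts, and the KO call was lost without newborn KO array 4 (adjusted p = 0.0620) or young KO array 3 (0.0518). Among genes of smooth muscle type in KO hearts, Myl9, a regulatory light chain, fell by 1.07, while Cnn1 (calponin) was at -0.39 and Tpm2, a tropomyosin, at -0.69 and did not pass. In WT hearts Myl9 fell by 2.00, Cnn1 fell by 2.81 and Tpm2 fell by 1.43. Tgfb1i1 and Csrp1, LIM proteins of smooth muscle and adhesion sites, fell by 1.13 and 0.87 in KO and by 1.32 and 1.33 in WT hearts. Myh11, the smooth muscle myosin, rose by 1.45 in KO hearts (adjusted p = 0.0131) and was at 0.30 in WT hearts. Most of the 10 smooth muscle markers, Cnn1 and Myh11 among them, are also in this list. Of these 10 markers, 5 were higher and 1 lower with age in KO hearts and 2 higher and 2 lower in WT hearts. Dmd, the dystrophin gene, rose by 0.53 in KO and 0.93 in WT hearts. A CArG box was found for 8 of the 27 genes of this list with a promoter window, 29.6%, against 1.81% of all genes. It was found for 1 of 11 early response targets of SRF (9.09%), 2 of 14 SRF partners (14.3%) and 3 of 22 MEF2 targets (13.6%).

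The early response targets of SRF and its ternary complex factors had 7 of 15 higher and 2 lower with age in KO hearts and 7 higher and 1 lower in WT hearts. Nr4a1, an orphan nuclear receptor and a target of MEF2 too, rose by 1.48 in KO and 1.16 in WT hearts, and Ptgs2, which encodes cyclooxygenase-2, by 1.37 and 1.10. Dusp1, a phosphatase of MAP kinases, rose by 0.74 in KO and 0.93 in WT hearts. Fos, an AP-1 factor, was at 0.47 in KO hearts and rose by 1.10 in WT hearts. Ier2, an early response gene, fell by 0.38 in KO and 0.39 in WT hearts, and the WT call was lost with quantile normalization (adjusted p = 0.0734). Egr1, an early growth response factor, fell by 0.36 in KO hearts (adjusted p = 0.0297), a call lost without any of 6 single KO arrays, and was at -0.01 in WT hearts.

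**Figure D4:**
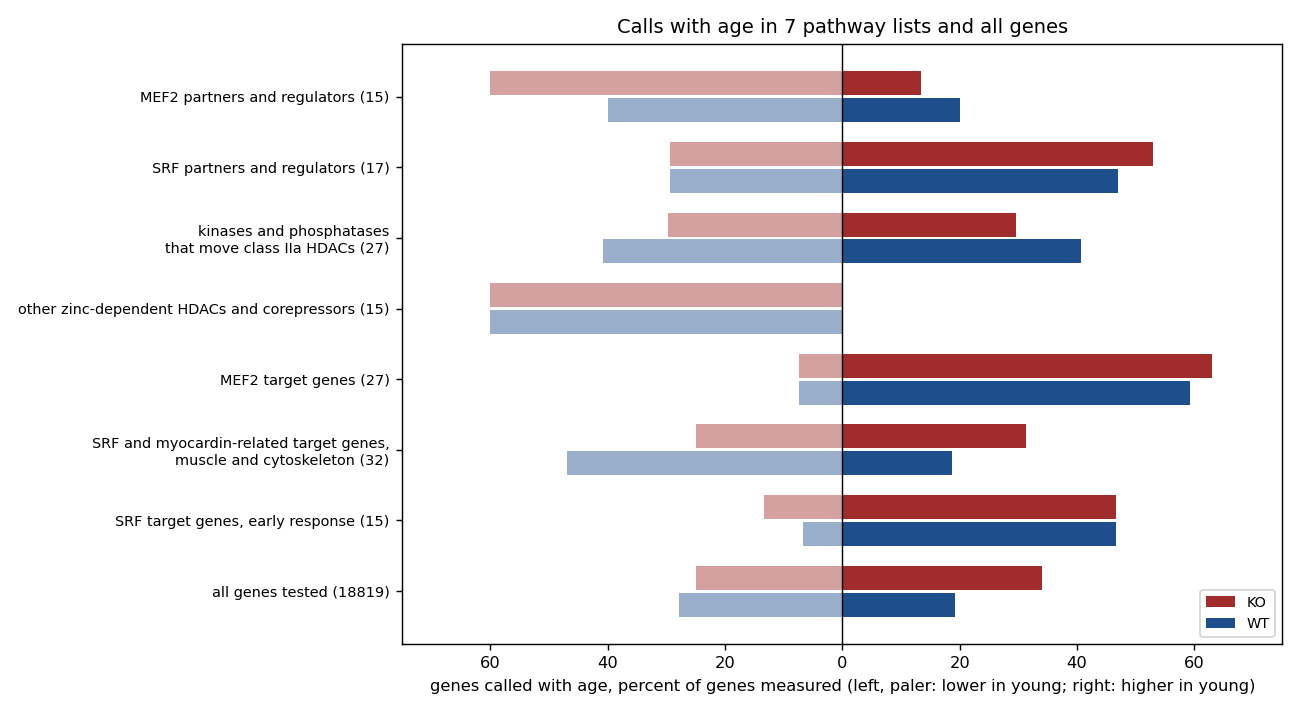
Share of the measured genes of 7 lists, and of all 18819 genes, called higher (right) or lower (left, paler) in young than in newborn hearts, for KO and WT. The horizontal axis is percent of genes, with the number measured beside each list. Other deacetylases and corepressors have calls on the left alone, and MEF2 targets have most of theirs on the right.

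Between genotypes, 0 genes of the 7 lists were called in newborn hearts. Slc2a4 came nearest, with 8.52, 8.91 and 9.07 in newborn KO and 9.13, 9.33 and 9.43 in newborn WT arrays. Its arrays did not overlap, and its log2 fold change was -0.46 (SE 0.09, limma adjusted p = 0.101). Without the 2 newborn arrays numbered 4, Slc2a4 (-0.54, adjusted p = 0.00203) and Tpm4, a cytoskeletal tropomyosin (-0.32, 0.0458), were called lower in KO hearts, and Xirp2 (0.47, 0.0226), Nppb (1.07, 0.0254) and the small Maf factor gene Maff (0.80, 0.00141) higher. These 5 of the 147 list genes stand against 2.56% of all genes called without that pair. They were named after their values were seen. The 2 arrays were left out because of genotype-related signals in the same data, so these adjusted p-values are not those of an independent test.

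In young hearts 4 of the 147 list genes were called between KO and WT, against 1.02% of all genes. Sik1, a salt-inducible kinase that phosphorylates class IIa HDACs, had 9.21, 9.39 and 9.64 (lowest, median and highest) in KO and 8.37, 8.69 and 9.18 in WT arrays. The groups did not overlap, and Sik1 rose by 0.65 in KO hearts (SE 0.15, limma adjusted p = 0.0261). It also rose with age, by 0.99 in KO and 0.65 in WT hearts. Hand2, a partner of MEF2 in the developing right ventricle, had 8.23, 8.41 and 8.51 in KO and 7.62, 8.01 and 8.27 in WT arrays, overlapping slightly, and rose by 0.40 in KO hearts (SE 0.10, adjusted p = 0.0449). With age Hand2 fell by 0.25 in KO and 0.62 in WT hearts. Myl9 had 9.65, 10.93 and 11.18 in KO and 9.27, 9.52 and 10.84 in WT arrays, with wide overlap, and rose by 0.97 in KO hearts (SE 0.23, adjusted p = 0.0410). Dmd had 8.33, 8.42 and 8.52 in KO and 8.60, 8.80 and 8.97 in WT arrays, without overlap, and fell by 0.38 in KO hearts (SE 0.07, adjusted p = 0.00601).

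All 4 calls were lost when the 12 young arrays were fitted alone (limma adjusted p 0.0708 to 0.262). They were also lost in the same 12 arrays with the replicate number as a block (0.0719 to 0.135). The same held with the atrial marker mean in the fit of young arrays (0.266 to 0.658). There Myl9 dropped to 0.25 and the others stayed between -0.32 and 0.69. The Hand2 call was also lost after median centring (0.34, adjusted p = 0.0876), with array weights (0.0621) and with all probe sets tested (0.0743). The Myl9 call was also lost with a variance trend (adjusted p = 0.0636), with all probe sets tested (0.0706) and without the 2 newborn arrays numbered 4 (0.0524). Leaving out single arrays ended the Hand2 call for 14 of 24 arrays, the Myl9 call for 16, the Sik1 call for 4 (young WT 1, 3 and 4 and young KO 5) and the Dmd call for 0. The atrial markers (0 of 12 called, 8 with an unadjusted limma p under 0.05) had a median log2 fold change of 1.40. Their mean ran from 6.13 to 9.20 in young KO and 5.63 to 8.67 in young WT arrays (exact permutation test, two-sided p = 0.0606). The smooth muscle markers (0 of 10 called), most of them also listed SRF targets, had a mean of 7.63 to 9.17 in young KO and 7.39 to 8.74 in young WT arrays (exact p = 0.0368). Median log2 fold changes of other markers were 0.59 (fibroblast), 0.90 (epicardial), 0.16 (macrophage and leukocyte), 0.12 (skeletal muscle), 0.014 (endothelial) and -0.26 (erythroid). The ventricular cardiomyocyte markers (2 of 10 called lower) had a mean of 12.16 to 12.26 in young KO and 12.22 to 12.34 in young WT arrays (exact p = 0.0195).

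**Figure D5:**
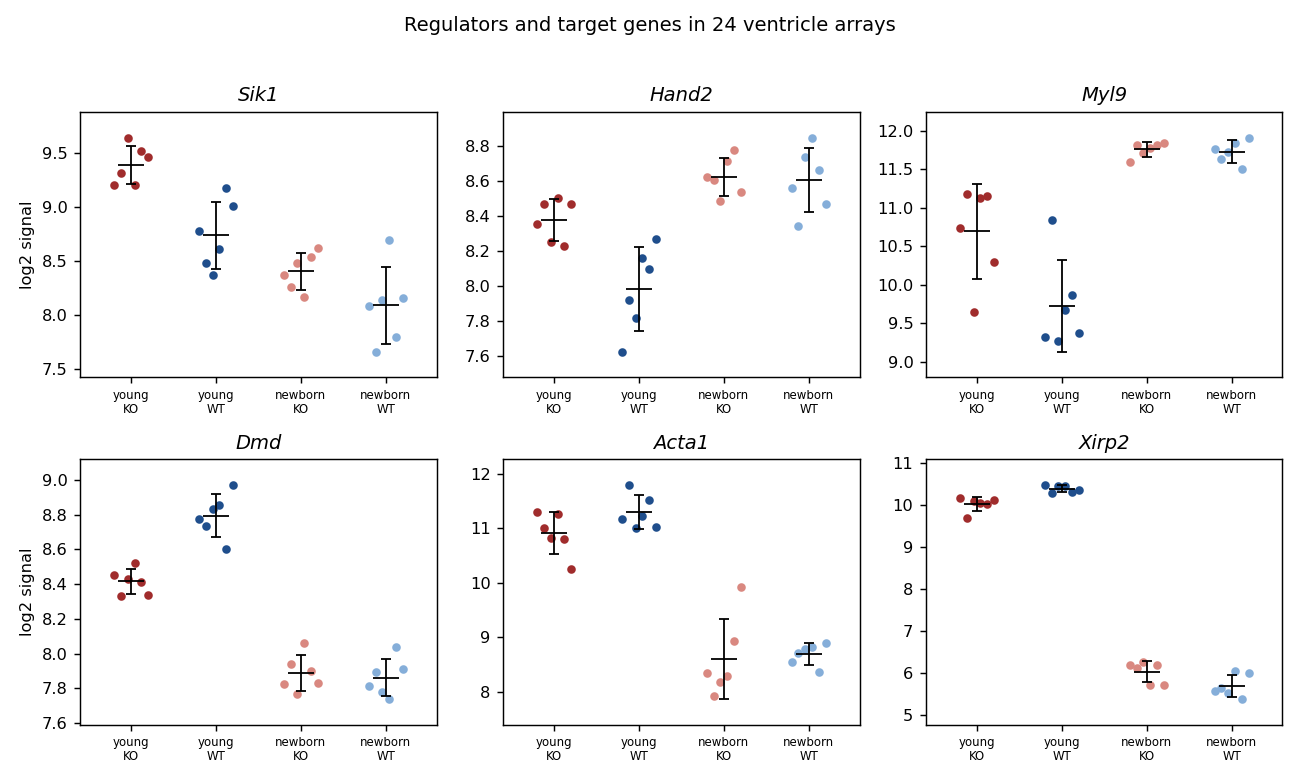
Log2 signal (vertical axis, own scale per panel) of the 4 list genes called between young KO and young WT hearts, Sik1, Hand2, Myl9 and Dmd, and of the targets Acta1 and Xirp2 with a motif shown above, in every array of the 4 groups. Points are arrays, and bars are the mean and SD over 6 arrays. Sik1 and Dmd separate young KO from young WT arrays, and Acta1 and Xirp2 separate the ages.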

How the data were processed

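RNA of mouse ventricles was read on 24 Affymetrix whole-transcript arrays, 6 for each of 4 groups taken from the sample annotation. The authors deposited log2 signals after RMA. Software listed in the submitters' processing notes, with no role given, was R 2.15 with the packages oligo 1.22 and limma 3.14. Of 35017 probe sets, 21118 named 1 gene, and 21085 of these were matched to RefSeq by Entrez identifier. All group differences and fold changes came from limma 3.58.1 under R 4.3.3. The main fit used all 24 arrays at once (20 residual degrees of freedom, Benjamini-Hochberg adjustment). The procedure was also run on simulated data with independent noise for each gene, a simpler setting than that of these arrays. No batch of arrays was given, and precision rests on 6 arrays a group. Per the study's methods, RNA came from 6 hearts a group.

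The 10 genes and all lists were chosen with earlier results of these data known. Text names the 10 genes, up to 3 genes per direction of each list and comparison by size of change among those called, and the 2 genes most like each member. Alternatives were a filter on the 30th percentile of signal, a 1.5-fold minimum, an adjusted p under 0.01, median centring, quantile normalization, a variance trend, array weights, a replicate block, the mean of probe sets, all probe sets, only the 12 arrays of a comparison, leaving out the newborn arrays numbered 4, an atrial covariate and leaving out each array. Replicate numbers did not pair the arrays. Some genes, 1 of them within the naming rule, are not reported here.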

Additional observations from a re-analysis of the deposited data

Results flagged for a closer look

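Each of the 10 genes was examined in each of the 4 groups for an array far from the others, 40 sets of 6 in all, and chance alone would mark about 1 in 20. A single one stood out. Mrtfb had a log2 signal of 9.06 in the newborn WT array numbered 5, while the other 5 newborn WT arrays lay between 8.59 and 8.70. The gap was 0.78 of the group's range. No member had a difference between the young and the newborn KO effect that passed the test.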

How the results depend on the processing

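Of 7420 recomputed values of 206 results, under 35 to 37 alternatives per comparison, 7061 kept both their direction and their side of the threshold or, for counts, stayed within 1.5 times. No member was called between KO and WT hearts under any alternative. With age, requiring 1.5-fold left 0 members higher and 0 lower in both genotypes, since no change was that large. In KO hearts an adjusted p under 0.01 and quantile normalization each left 1 higher and 1 lower. Leaving out the 2 newborn arrays numbered 4 left 1 lower, and leaving out single arrays gave 1 to 2 higher (1 without newborn KO array 2, newborn KO array 4 or young KO array 3).

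Signs turned only for changes that were not called. Between newborn KO and WT, Myocd was at 0.020 with median centring, 0.014 with quantile normalization and 0.011 with array weights, and leaving out single arrays gave -0.017 to 0.078 for Mef2d, -0.027 to 0.019 for Myocd, -0.023 to 0.045 for Hdac4 and -0.043 to 0.045 for Hdac5. Between young KO and WT, Mef2d was at 0.048 with the atrial covariate and Hdac9 at -0.025 with median centring, and single arrays gave -0.047 to 0.043 for Mef2d, -0.064 to 0.028 for Hdac5 and -0.024 to 0.089 for Hdac9. For the difference between the ages' KO effects, Mrtfa was at -0.036 with median centring and -0.0079 with quantile normalization, and Mrtfb at 0.0027 with the mean of probe sets and 0.024 without the newborn arrays numbered 4. Single arrays gave -0.059 to 0.0061 for Mef2c, -0.089 to 0.020 for Mef2d, -0.0053 to 0.086 for Mrtfa, -0.080 to 0.053 for Mrtfb and -0.074 to 0.031 for Hdac5. With age in KO hearts, Mef2c was at -0.018 with quantile normalization and Mef2d at 0.0019 without the newborn arrays numbered 4, and single arrays gave -0.011 to 0.055 for Mef2c, -0.057 to 0.031 for Mef2d and -0.092 to 0.012 for Mrtfb. With age in WT hearts, Mef2d was at -0.14 with the mean of probe sets, Mrtfb at 0.026 with median centring, and Hdac5 at 0.011 with median centring and 0.023 with quantile normalization. Single arrays gave -0.028 to 0.067 for Mef2d and -0.071 to 0.025 for Mrtfb. The cause was not tested.

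Arrays of the same number and age had deviations correlating from -0.438 to 0.645, with 5 of 12 over 0.1 and 3 of 12 matching their own number best. The replicate block left 29 genes called between young KO and WT hearts, against 192 without it, and 0 members called in either fit. Leaving out single arrays moved that count of 192 between 108 and 806, the most without young KO array 3 (806) or young WT array 2 (784).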
